A study of Mus musculus with 16 samples.

Results

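The genes described are 39 histone lysine methyltransferases, subunits of their complexes and histone lysine demethylases of the mouse, out of 24981 genes listed in each of 2 expression tables. They were chosen by name, as members of these families whose symbol is a row of both tables, with earlier results of these data known. The study profiled total RNA of basal and suprabasal cells that were separated on a Percoll density gradient from the skin epidermis of newborn mice at postnatal day 0 to 2. From Fvb/N mice there are 4 libraries of basal and 4 of suprabasal cells. The Dlx3 mice, wild type (WT) or knockout (KO), were of mixed CD-1 and C57BL/6 descent, with 2 libraries for each genotype and fraction. The KO allele, any promoter that drives its deletion and how many animals went into a library are not given in the sources used here. Values are RPKM, reads per kilobase of gene scaled to the mapped reads of a library. Each of the tables has its own normalization, and no level of one is set against a level of the other.

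Writers of histone lysine methylation transfer methyl groups to defined lysines of the histone tails, and demethylases take them off. Methylation of H3K4, laid down by the KMT2 and SET1 enzymes, marks promoters and enhancers of active genes. H3K36 and H3K79 methylation mark transcribed gene bodies, and H3K9 methylation marks heterochromatin and silenced genes. In the epidermis, cells of the basal layer divide, leave the basement membrane and differentiate in the suprabasal layers, where they stop dividing and build the cornified barrier. Kmt2d and the H3K27 demethylase Kdm6b are known for roles in the expression of differentiation genes in keratinocytes. Dlx3 is a homeobox transcription factor of the differentiating epidermis and of hair.

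Estimated depth ran from 45.9 to 61.9 M (mega) reads in the Fvb/N and from 34.0 to 42.3 M reads in the Dlx3 libraries. The median difference per gene was 2.54% to 3.003% between the 2 libraries of a Dlx3 group, more than counting noise alone gives, and 6.41% to 38.5% within an Fvb/N group. Whether libraries came from separate animals is not stated, so p-values measure only the spread between these libraries, which may be technical. Dlx3 itself was at 11.2 and 11.0 RPKM in WT basal, 7.87 and 6.92 in WT suprabasal, 2.35 and 2.16 in KO basal and 2.64 and 2.24 in KO suprabasal libraries, so it was lower in every KO library but not at 0. The fractions carried their markers. The summed RPKM of 8 basal keratinocyte genes (Krt5, Krt14 and others) was 14310 to 17579 in Fvb/N basal against 738 to 4074 in suprabasal libraries, and 16525 to 16931 against 8383 to 8473 in the WT ones. Fvb/N suprabasal replicate 3 stood apart. It held the highest value of its group for 36 of the 39 genes and 4074 summed RPKM of basal markers, against 738 to 1463 in the other 3 libraries. Its median ratio to the geometric mean of the Fvb/N libraries, over genes above 0 in all of them, was 0.997. The other suprabasal libraries had 0.715 to 0.787, so the typical gene of the table was also higher in replicate 3. How many of all genes were highest in it was not counted. Fvb/N basal replicates 1 and 2 held 34534 and 39433 summed RPKM of 8 suprabasal markers (Krt1, Krt10 and others), against 5485 and 6400 in replicates 3 and 4. The sample labels put replicates 1 and 2 of both Fvb/N fractions in an earlier sequencing run and replicates 3 and 4 in a later one. By the header of the table itself every basal library belongs to the earlier run and every suprabasal one to the later run, and under that reading the run and the fraction cannot be told apart.

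The promoters of 4 of the genes are shown, chosen after their values were seen. Kdm5b was the 1 gene of the 39 that was called higher in suprabasal cells in all 3 fraction comparisons under 3 scalings. Of the 11 called lower in all of them, Suv39h1 is shown for its fall in Fvb/N, the largest of the 11, and Suv39h2 and Paxip1 because they are those with an E2F-type match, which the other 8 of the 11 with a promoter in the table do not have. Dpy30, which also has an E2F-type match, is not shown. It fell in both Dlx3 genotypes but was not called in Fvb/N. Suv39h1 has 2 promoters in the table, of which 1 is shown. Each line gives the 250 bases before the RefSeq transcription start (build GRCm38.p6), 5′ to 3′ on the gene's strand, and capitals mark a match on either strand to an E2F-type motif, which is TTCCCGC or the motif TTGGCGC or the motif TTCGCGC, the kind of site through which cell cycle genes are controlled.
Kdm5b, chr1:134559928-134560177, plus strand: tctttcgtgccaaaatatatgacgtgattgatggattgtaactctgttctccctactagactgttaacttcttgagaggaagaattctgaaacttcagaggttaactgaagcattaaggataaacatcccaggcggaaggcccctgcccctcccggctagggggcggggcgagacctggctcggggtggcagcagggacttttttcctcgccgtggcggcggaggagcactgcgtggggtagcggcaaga
Suv39h1, chrX:8074761-8075010, minus strand: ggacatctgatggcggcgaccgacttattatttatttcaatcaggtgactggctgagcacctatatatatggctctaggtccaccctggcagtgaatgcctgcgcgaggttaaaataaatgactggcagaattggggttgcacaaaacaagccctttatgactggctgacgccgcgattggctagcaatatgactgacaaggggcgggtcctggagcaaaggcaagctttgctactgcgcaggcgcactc
Suv39h2, chr2:3474987-3475236, minus strand: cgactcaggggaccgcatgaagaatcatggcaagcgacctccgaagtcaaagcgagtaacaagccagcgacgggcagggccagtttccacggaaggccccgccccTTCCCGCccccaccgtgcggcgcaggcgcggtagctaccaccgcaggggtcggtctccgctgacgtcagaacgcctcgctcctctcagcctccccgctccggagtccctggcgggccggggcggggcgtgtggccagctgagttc
Paxip1, chr5:27791551-27791800, minus strand: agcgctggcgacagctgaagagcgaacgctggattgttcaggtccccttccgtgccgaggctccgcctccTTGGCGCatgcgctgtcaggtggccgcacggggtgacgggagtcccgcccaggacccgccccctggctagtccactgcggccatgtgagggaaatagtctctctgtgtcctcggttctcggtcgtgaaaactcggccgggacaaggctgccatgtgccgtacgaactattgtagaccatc

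The promoter table had entries for 27 of the 39 genes, 37 promoters in all. An E2F-type match lay in 10.8% of these promoters, against 6.69% of all 32851 promoters in the table. The genes with one were only 3, Suv39h2, Paxip1 and Dpy30. Dpy30 is counted more than once, because overlapping windows of it hold the same TTCGCGC site. A homeobox-type motif (TAATTA or TAATTG on either strand) lay in 2.70% of the 37 promoters, that of 1 gene (Rbbp5), against 11.3% of all. The median number of CG dinucleotides was 20 in the 37 promoters and 6 in all. The E2F-type motifs contain CG and the homeobox-type motifs do not, so the shares of all promoters are not a like background for either. These counts describe the 250-base windows and are no test of a factor's binding.

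All 39 genes passed the filter on low values in both tables. In Fvb/N Suv39h2 did so through its basal libraries, since 1 suprabasal library alone reached 1 RPKM. Ehmt2 (G9a), which mono- and dimethylates H3K9, had the highest level in WT basal cells, 56.9 ± 1.42 RPKM (SD, n = 2), followed by the H3K4 demethylase Kdm1a (LSD1) at 46.98 ± 0.339 RPKM and by Ash2l at 35.6 ± 1.06 RPKM. These 3 levels did not overlap. Wdr5 at 29.5 ± 1.08 and Dpy30 at 28.3 ± 0.02998 RPKM came next and lay close together. Smyd3 at 2.94 ± 0.0789 and Suv39h2 at 3.68 ± 0.0322 RPKM were the lowest, and Phf8 stood at 4.63 ± 0.1602 RPKM. Ehmt2 and Kdm1a also led in Fvb/N basal cells, at 57.7 ± 3.62 and 44.9 ± 4.61 RPKM (n = 4), and Suv39h2 and Smyd3 were again lowest, at 2.31 ± 0.265 and 2.48 ± 0.752 RPKM, which overlapped. In Fvb/N suprabasal cells Kdm5b, a demethylase of H3K4, was highest at 32.7 ± 4.07 RPKM, and in WT suprabasal cells it came second, at 34.6 ± 0.496 RPKM, after Ehmt2 at 37.7 ± 0.535 RPKM.

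Most of the 39 genes were lower in suprabasal than in basal cells, and so were most genes of the tables. In Fvb/N mice 32 of the 39 fell and 1, Kdm5b, rose (limma with Benjamini-Hochberg adjustment over all 11608 genes tested, called at an adjusted p under 0.05), where 60.6% of all genes fell and 13.4% rose. Their median log2 fold change was −1.01, against −0.55 over all genes. In Dlx3 WT mice 32 fell and 4 rose, beside 70.4% and 19.2% of all 12146 genes tested, with a median of −0.37 against −0.40 over all genes. In Dlx3 KO mice 35 fell and 3 rose, beside 69.7% and 19.9%, with a median of −0.50 against −0.39. RPKM are relative values, and rescaling moved the median over all genes up by 0.55 in Fvb/N, by 0.36 in WT and by 0.35 in KO. Fell and rose below are therefore read against 3 scalings, the deposited RPKM, libraries rescaled by their median ratio, and quantile normalization. Under all 3, 20 of the 39 genes fell and 1 rose in Fvb/N, beside 30.7% and 13.3% of all genes. In WT 13 fell and 4 rose, beside 42.7% and 19.2%, and in KO 20 fell and 3 rose, beside 42.7% and 19.9%. A total of 11 genes fell in all 3 fraction comparisons under every scaling: Wdr5, Ncoa6, Paxip1, Suv39h1, Suv39h2, Ehmt1, Ehmt2, Setd2, Smyd5, Kdm1a and Kdm3b. Suv39h2 is counted among the 11 although it passed the Fvb/N filter through its basal libraries, so its Fvb/N fall adds no separate support. Kdm5b was the 1 gene that rose in all 3 comparisons under every scaling. In bulk samples fewer cells of a type and less RNA per cell cannot be told apart. Genes of cycling cells moved in the same direction as the falling genes: 10 of 10 (Mki67, Top2a and others) fell in each of the 3 comparisons, with a summed RPKM of 329 to 482 in Fvb/N basal and 49.3 to 101 in suprabasal libraries, 581 to 583 and 238 to 240.4 in WT, and 546 to 550.002 and 249 to 249.5 in KO. Markers of Langerhans cells and macrophages fell in Fvb/N (6 of 7 tested), with 167 to 449 summed RPKM in basal against 11.99 to 76.6 in suprabasal libraries. Melanocyte markers also fell (6 of 7), with 93.6 to 164 against 13.7 to 31.5, and 5 of 5 inner root sheath markers rose, with 4.07 to 5.64 against 122 to 201. Of 4 fibroblast markers tested 2 rose and 1 fell in Fvb/N, with 41.5 to 136 against 17.4 to 118. Erythroid markers fell in both Dlx3 genotypes (5 of 5 tested), and of 8 Langerhans and macrophage markers 5 fell in WT, with 179.7 to 185 in basal against 155 to 157 in suprabasal libraries, and 7 rose in KO, with 184 to 184 against 229.9 to 232. Of 7 melanocyte markers 6 fell in WT, and 5 fell and 1 rose in KO. Inner root sheath markers rose (5 of 5 in WT and 4 of 5 in KO), and of 4 fibroblast markers 2 rose and 2 fell in WT, and 3 rose and 1 fell in KO. Endothelial markers were at 0.2704 to 1.997 summed RPKM in all libraries, under the filter. Cdh5, an endothelial gene, was at 0 in some libraries. The part of these lists in the changes of the 39 genes was not tested. Longer genes fell more in Fvb/N: the median log2 fold change of all genes was −0.21 where the longest annotated transcript is under 2 kb and −0.89 at 8 kb or more, and 11 of the 39 genes are of the last class. The median of these 11 was −0.85. At 2 to 4, 4 to 6 and 6 to 8 kb the medians of the members were −1.09, −0.91 and −1.02, against −0.52, −0.72 and −0.85 for all genes. Under 2 kb the median of 2 members was −0.55.

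**Figure D1:**
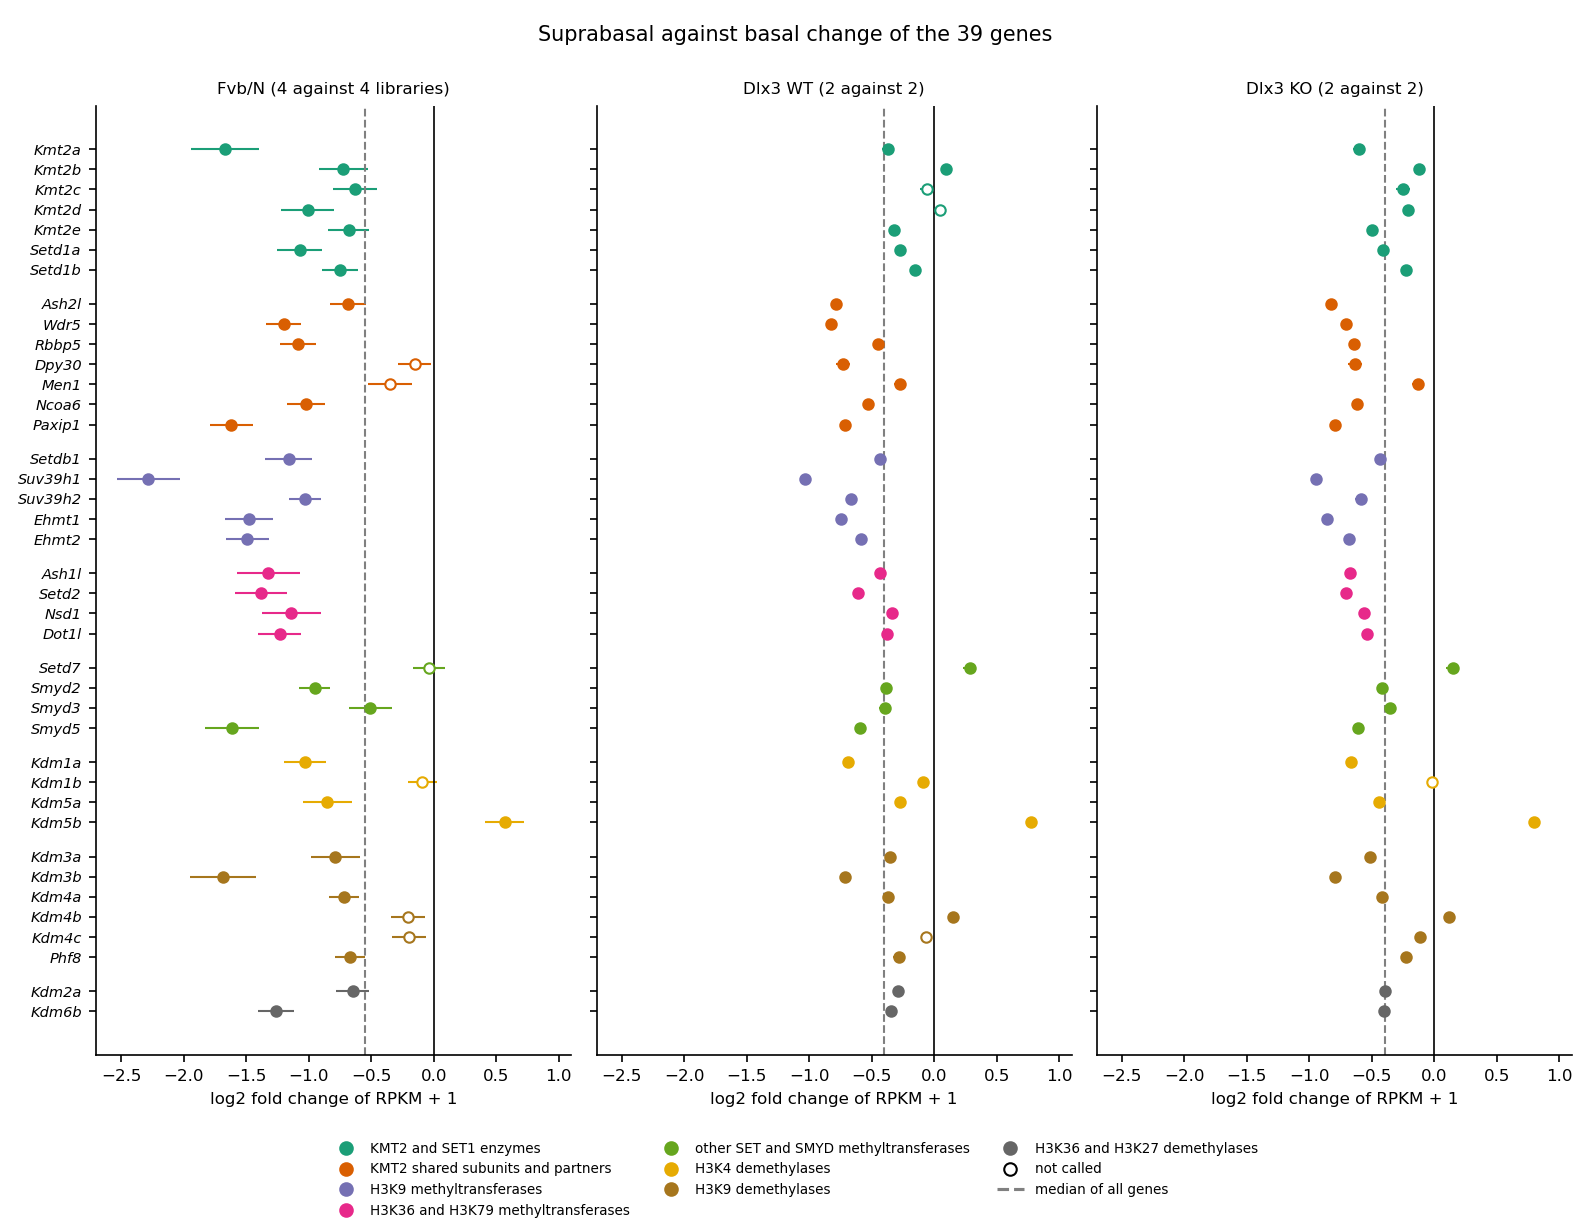
Log2 fold change of RPKM + 1 between suprabasal and basal cells for each of the 39 genes, grouped by role, in Fvb/N, Dlx3 WT and Dlx3 KO mice. Points are limma estimates with their standard error, open where not called, and the dashed line is the median over all genes. Suv39h1 lies lowest and Kdm5b highest in all 3 panels, and in Fvb/N 32 genes fell and 1 rose.

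The KMT2 and SET1 enzymes methylate H3K4. Kmt2a and Kmt2b act mainly at promoters of chosen genes, Kmt2c and Kmt2d monomethylate H3K4 at enhancers, Setd1a and Setd1b trimethylate promoters broadly, and Kmt2e is a SET-domain relative without established activity on H3K4. All 7 fell in Fvb/N as deposited, 2 of them (Kmt2a and Setd1a) under all 3 scalings. Kmt2a was at 9.195, 8.47, 10.8 and 10.2 RPKM in the 4 Fvb/N basal libraries and at 1.72, 1.46, 5.24 and 1.96 RPKM in the 4 suprabasal ones. The fractions did not overlap, suprabasal replicate 3 was high in its group, and the log2 fold change was −1.67 (SE 0.27, adjusted p = 0.000514). Setd1a was at 22.7, 19.6, 23.1 and 19.6 RPKM in the 4 Fvb/N basal libraries and at 9.07, 7.79, 14.4 and 8.03 RPKM in the 4 suprabasal ones, with no overlap and a log2 change of −1.07 (SE 0.18, adjusted p = 0.000657). The reading of Setd1a is uncertain, since 51.8% of its exon bases are shared with the overlapping gene Gm49388. Setd1b was at 11.1, 9.45, 9.62 and 8.28 RPKM in the 4 Fvb/N basal libraries and at 4.94, 4.25, 6.66 and 5.55 RPKM in the 4 suprabasal ones, a log2 change of −0.75 (SE 0.15, adjusted p = 0.00139) that came to −0.18 after rescaling by the median ratio and was no longer called. The log2 fold changes of the other 4 lay between −1.01 for Kmt2d and −0.63 for Kmt2c, and the libraries overlapped in 1 of the 7, Kmt2c, at 6.95 RPKM in the lowest basal and 7.03 RPKM in the highest suprabasal library. Within the labels' later run (2 against 2 libraries) Kmt2b, Kmt2c, Kmt2d, Kmt2e and Setd1b were not called, and within the earlier run all 7 were.

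Among the Dlx3 WT libraries 4 of the 7 fell as deposited and 0 under all 3 scalings, while Kmt2b rose under all 3. The ratio of Kmt2a to Kmt2b within a library, from the deposited RPKM, in which a factor common to all genes of the library cancels, was lower in suprabasal cells of every group, at 0.416 ± 0.0764 and 0.171 ± 0.0612 in Fvb/N (SD, n = 4), 0.494 ± 0.00916 and 0.345 ± 0.00646 in WT and 0.548 ± 0.0267 and 0.375 ± 0.0173 in KO (n = 2), with no overlap between fractions. A shift with transcript length would not cancel in this or the later ratios. The longest transcript is 16.5 kb for Kmt2a and 8.47 kb for Kmt2b. Kmt2b was at 18.4 and 17.6 RPKM in WT basal, 19.2 and 19.5 in WT suprabasal, 18.1 and 17.96 in KO basal and 16.6 and 16.3 in KO suprabasal. The suprabasal libraries were the higher ones in WT and the lower ones in KO: the log2 fold change was 0.097 (SE 0.031, adjusted p = 0.0148) in WT and −0.12 (SE 0.031, adjusted p = 0.00418) in KO as deposited, but 0.51 and 0.28 after rescaling, where both rose. The WT call was lost without WT basal replicate 2 or WT suprabasal replicate 2 (adjusted p up to 0.117). Kmt2a was at 9.22 and 8.56 RPKM in WT basal, 6.705 and 6.62 in WT suprabasal, 10.2 and 9.51 in KO basal and 6.01 and 6.31 in KO suprabasal. It was lower in every suprabasal library, by −0.37 on the log2 scale in WT and −0.603 in KO, and the KO fall was called under every scaling. Kmt2d was at 11.1 and 10.4 RPKM in WT basal, 11.2 and 11.1 in WT suprabasal, 12.7 and 12.1 in KO basal and 10.7 and 10.4 in KO suprabasal. In WT the fractions overlapped, with a log2 change of 0.045 (SE 0.041, adjusted p = 0.313), and in KO both suprabasal libraries were below the basal ones, −0.21 (SE 0.041, adjusted p = 0.00086), which turned to 0.18 after rescaling. Kmt2e was at 24.03 and 23.9 RPKM in WT basal, 19.01 and 18.98 in WT suprabasal, 24.9 and 24.2 in KO basal and 16.8 and 17.5 in KO suprabasal, with fraction changes of −0.32 (SE 0.030, adjusted p = 4.61e-06) in WT and −0.497 (SE 0.030, adjusted p = 2.01e-07) in KO, the KO fall under every scaling. Setd1a was at 20.05 and 19.5 RPKM in WT basal, 16.3 and 16.1 in WT suprabasal, 19.5 and 19.1 in KO basal and 14.5 and 14.03 in KO suprabasal, with −0.28 (SE 0.030, adjusted p = 1.58e-05) in WT and −0.42 (SE 0.030, adjusted p = 7.93e-07) in KO, the WT value turning to 0.14 after rescaling. Kmt2c changed by −0.058 in WT, where it was not called, and by −0.25 in KO on the log2 scale, and Setd1b by −0.15 and −0.23. All 4 of these values were positive after rescaling.

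The catalytic subunits work with a shared core of Wdr5, Rbbp5, Ash2l and Dpy30. Menin (Men1) joins the Kmt2a and Kmt2b complexes, and Ncoa6 and Paxip1 belong to those of Kmt2c and Kmt2d. In Fvb/N 5 of these 7 genes fell, 4 of them (Paxip1, Wdr5, Rbbp5 and Ncoa6) under all 3 scalings, and Dpy30 and Men1 were not called. Paxip1 was at 15.1, 12.7, 15.9 and 13.5 RPKM in the 4 Fvb/N basal libraries and at 3.89, 3.39, 5.87 and 3.11 RPKM in the 4 suprabasal ones, a log2 change of −1.62 (SE 0.17, adjusted p = 8.28e-05). Wdr5 was at 20.6, 20.3, 23.3 and 25.5 RPKM in the 4 Fvb/N basal libraries and at 8.45, 8.03, 11.6 and 8.85 RPKM in the 4 suprabasal ones, a change of −1.202 (SE 0.14, adjusted p = 0.000104). Rbbp5 was at 11.6, 12.3, 11.3 and 12.3 RPKM in the 4 Fvb/N basal libraries and at 4.8003, 4.41, 7.02 and 4.33 RPKM in the 4 suprabasal ones, a change of −1.09 (SE 0.15, adjusted p = 0.000198). All 3 separated the fractions without overlap in every library. Dpy30 stood at 19.2 ± 2.79 RPKM (SD, n = 4) in basal and 17.1 ± 1.49 RPKM in suprabasal libraries, −0.15 (SE 0.13, adjusted p = 0.307), and after rescaling its change was 0.47, higher in suprabasal cells (adjusted p = 0.0305). Men1 was at 16.7 ± 2.62 and 12.97 ± 2.89 RPKM, −0.35 (SE 0.17, adjusted p = 0.0935). With the replicate number as a block its adjusted p was 0.022, the only call of the 39 that the block changed. Ash2l and Ncoa6 changed by −0.69 and −1.02 on the log2 scale.

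All 7 fell in both Dlx3 genotypes as deposited, 5 in WT and 6 in KO under all 3 scalings, Dpy30 among them. Ash2l was at 34.8 and 36.3 RPKM in WT basal, 20.3 and 20.2 in WT suprabasal, 34.8 and 35.2 in KO basal and 19.2 and 19.4 in KO suprabasal. Both suprabasal groups lay far under both basal groups, with −0.78 (SE 0.028, adjusted p = 6.38e-09) in WT and −0.83 (SE 0.028, adjusted p = 4.80e-09) in KO. Wdr5 was at 28.8 and 30.3 RPKM in WT basal, 16.4 and 16.01 in WT suprabasal, 26.995 and 28.3 in KO basal and 16.6 and 16.5 in KO suprabasal, with −0.83 (SE 0.035, adjusted p = 1.72e-08) and −0.71 (SE 0.035, adjusted p = 5.13e-08). Paxip1 was at 15.2 and 14.8 RPKM in WT basal, 8.88 and 8.65 in WT suprabasal, 13.9 and 14.3 in KO basal and 7.64 and 7.83 in KO suprabasal, with −0.71 (SE 0.034, adjusted p = 3.99e-08) and −0.79 (SE 0.034, adjusted p = 2.11e-08). Neither gene's fractions overlapped. Rbbp5 was at 13.2 and 13.1 RPKM in WT basal, 9.41 and 9.27 in WT suprabasal, 13.6 and 13.3 in KO basal and 7.99 and 8.48 in KO suprabasal, with −0.45 (SE 0.036, adjusted p = 1.49e-06) and −0.64 (SE 0.036, adjusted p = 1.24e-07), and its WT fall was not called under every scaling. Dpy30 changed by −0.73 (SE 0.057, adjusted p = 1.26e-06) in WT and −0.63 (SE 0.057, adjusted p = 3.50e-06) in KO, from 28.3 ± 0.02998 to 16.7 ± 0.879 RPKM in WT (SD, n = 2). Ncoa6 changed by −0.53 and −0.62 on the log2 scale, and Men1 by −0.27 and −0.13, which turned to 0.14 and 0.27 after rescaling. The KO call of Men1 was lost without KO basal replicate 2 or KO suprabasal replicate 2. The ratio of the summed RPKM of the 4 core subunits to that of the 6 enzymes Kmt2a to Kmt2d, Setd1a and Setd1b was also taken within a library from the deposited RPKM. It was 0.711, 0.897, 0.912 and 1.14 in Fvb/N basal and 1.08, 1.39, 0.8004 and 1.202 in suprabasal libraries, which overlap. In WT it was 1.3997 and 1.51 in basal and 0.935 and 0.9101 in suprabasal libraries, and in KO 1.31 and 1.399 and 1.01 and 0.994, lower in the suprabasal libraries of both genotypes. The longest transcripts of the core run from 0.789 kb (Dpy30) to 3.70 kb (Ash2l). Those of the enzymes run from 6.49 kb (Setd1a) to 19.8 kb (Kmt2d), so a shift with length would not cancel here. The enzyme sum also includes Setd1a, whose reading is uncertain.

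Of the H3K9 methyltransferases, Suv39h1 and Suv39h2 trimethylate H3K9 in pericentromeric heterochromatin, Setdb1 trimethylates it at silenced repeats and genes, and Ehmt1 (GLP) and Ehmt2 (G9a) form the complex that mono- and dimethylates it. All 5 fell in Fvb/N under every scaling, and 4 of 5 did so in WT and in KO, Setdb1 being the exception. Suv39h1 was at 11.6, 10.7, 15.6 and 15.2 RPKM in the 4 Fvb/N basal libraries and at 1.39, 1.18, 3.85 and 1.78 RPKM in the 4 suprabasal ones. Every suprabasal library was far below every basal one, and the change of −2.28 (SE 0.25, adjusted p = 9.21e-05) was the largest fall of the 39 genes in all 3 fraction comparisons. It was −2.41 (adjusted p = 9.91e-09) within the labels' earlier run and −2.16 (adjusted p = 0.00327) within the later one, and −2.53 (adjusted p = 3.22e-06) without suprabasal replicate 3. Ehmt2 was at 60.6, 56.5, 60.7 and 53.2 RPKM in the 4 Fvb/N basal libraries and at 18.6, 16.2, 28.8 and 17.8 RPKM in the 4 suprabasal ones, a change of −1.49 (SE 0.17, adjusted p = 0.000107). Suv39h2 was at 1.92, 2.45, 2.46 and 2.42 RPKM in the 4 Fvb/N basal libraries and at 0.494, 0.499, 1.001 and 0.531 RPKM in the 4 suprabasal ones, a change of −1.03 (SE 0.13, adjusted p = 0.000145) on the log2(RPKM + 1) scale, which understates the change of so low a gene. Neither pair of fractions overlapped. Suv39h2 was tested in Fvb/N only because its basal libraries passed the filter of 1 RPKM in 4 libraries. Its fall there is therefore no separate support for the count of 5. Ehmt1 and Setdb1 changed by −1.48 and −1.16 on the log2 scale.

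Among the Dlx3 libraries Suv39h1 was at 17.1 and 18.2 RPKM in WT basal, 8.07 and 8.17 in WT suprabasal, 15.8 and 17.1 in KO basal and 7.88 and 8.22 in KO suprabasal. The fall was −1.03 (SE 0.045, adjusted p = 2.27e-08) in WT and −0.95 (SE 0.045, adjusted p = 4.27e-08) in KO, with no overlap. Ehmt1 was at 22.8 and 22.5 RPKM in WT basal, 12.9 and 13.4 in WT suprabasal, 22.98 and 22.2 in KO basal and 11.8 and 12.2 in KO suprabasal, with −0.74 (SE 0.033, adjusted p = 2.47e-08) and −0.86 (SE 0.033, adjusted p = 1.03e-08). Ehmt2 was at 55.9 and 57.9 RPKM in WT basal, 37.3 and 38.04 in WT suprabasal, 54.97 and 55.7 in KO basal and 34.5 and 33.5 in KO suprabasal, with −0.58 (SE 0.028, adjusted p = 3.74e-08) and −0.69 (SE 0.028, adjusted p = 1.39e-08). For both partners the KO suprabasal libraries were the lowest of the table. Suv39h2 was at 3.65 and 3.699 RPKM in WT basal, 1.92 and 1.99 in WT suprabasal, 3.33 and 3.35 in KO basal and 1.89 and 1.87 in KO suprabasal, with −0.66 (SE 0.045, adjusted p = 5.00e-07) and −0.59 (SE 0.045, adjusted p = 1.15e-06). Setdb1 changed by −0.43 in WT and −0.43 in KO on the log2 scale. Within a library Suv39h1 exceeded Suv39h2 by a factor of 6.02, 4.36, 6.35 and 6.28 in the Fvb/N basal and 2.81, 2.36, 3.85 and 3.36 in the suprabasal libraries, which did not overlap, and by 4.79 ± 0.166 in WT basal and 4.15 ± 0.0649 in WT suprabasal libraries (SD, n = 2). The ratio of Ehmt2 to Ehmt1 was 2.94 ± 0.153 in Fvb/N basal and 3.12 ± 0.224 in suprabasal libraries, which overlapped. In WT it was 2.45 and 2.57 in basal and 2.89 and 2.84 in suprabasal libraries. In KO it was 2.39 and 2.51 in basal and 2.93 and 2.75 in suprabasal libraries. It was thus higher in the suprabasal libraries of both Dlx3 genotypes, with no overlap.

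Ash1l and Nsd1 dimethylate H3K36, Setd2 trimethylates it behind elongating polymerase, and Dot1l methylates H3K79. All 4 fell in Fvb/N under every scaling, 4 of 4 in KO, and in WT Setd2 alone of the 4. Dot1l was at 22.1, 16.8, 19.4 and 17.6 RPKM in the 4 Fvb/N basal libraries and at 7.15, 5.95, 10.7 and 6.74 RPKM in the 4 suprabasal ones, a change of −1.23 (SE 0.17, adjusted p = 0.000239). Setd2 was at 14.2, 14.2, 15.95 and 17.9 RPKM in the 4 Fvb/N basal libraries and at 4.65, 4.07, 8.87 and 4.67 RPKM in the 4 suprabasal ones, a change of −1.38 (SE 0.21, adjusted p = 0.000337). Ash1l was at 11.8, 10.6, 12.8 and 13.1 RPKM in the 4 Fvb/N basal libraries and at 3.48, 2.86, 8.31 and 3.57 RPKM in the 4 suprabasal ones, a change of −1.32 (SE 0.25, adjusted p = 0.00127). In all 3 genes suprabasal replicate 3 was the highest of its group and still under the lowest basal library. Nsd1 changed by −1.14 on the log2 scale.

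Across the Dlx3 groups Setd2 was at 20.3 and 19.5 RPKM in WT basal, 12.7 and 12.6 in WT suprabasal, 20.3 and 19.9 in KO basal and 11.7 and 12.2 in KO suprabasal, with fraction changes of −0.61 (SE 0.034, adjusted p = 1.15e-07) in WT and −0.71 (SE 0.034, adjusted p = 4.40e-08) in KO. Ash1l was at 13.8 and 13.2 RPKM in WT basal, 9.83 and 9.63 in WT suprabasal, 14.5 and 14.05 in KO basal and 8.49 and 8.61 in KO suprabasal, with −0.43 (SE 0.036, adjusted p = 1.94e-06) and −0.68 (SE 0.036, adjusted p = 8.25e-08). Nsd1 was at 18.3 and 17.3 RPKM in WT basal, 13.9 and 13.8 in WT suprabasal, 18.7 and 18.3 in KO basal and 12.4 and 11.9 in KO suprabasal, with −0.34 (SE 0.035, adjusted p = 1.02e-05) and −0.56 (SE 0.035, adjusted p = 2.72e-07). In both genes the KO suprabasal libraries were below the WT ones. The KO basal libraries were above the WT ones in Ash1l and overlapped them in Nsd1. Dot1l was at 18.5 and 18.02 RPKM in WT basal, 14.1 and 13.6 in WT suprabasal, 18.1 and 18.6 in KO basal and 12.2 and 12.4 in KO suprabasal, with −0.37 (SE 0.032, adjusted p = 2.51e-06) and −0.54 (SE 0.032, adjusted p = 1.86e-07). After rescaling the WT values of Nsd1 and Dot1l were 0.072 and 0.039.

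Setd7 methylates H3K4 and several other proteins, Smyd2 methylates H3K36 and p53, Smyd3 methylates H3K4 and signalling kinases, and Smyd5 trimethylates H4K20. Smyd5 fell in all 3 fraction comparisons under every scaling and Smyd2 in Fvb/N, while Setd7 rose in WT and KO under every scaling. Smyd2 was at 22.5, 22.9, 24.2 and 25.2 RPKM in the 4 Fvb/N basal libraries and at 10.7, 10.6, 14.5 and 11.4 RPKM in the 4 suprabasal ones, a change of −0.95 (SE 0.12, adjusted p = 0.000157). Its values carry a limit, since 30.0% of its exon bases lie under Gm37422 on the other strand and strand use in counting is not stated. Smyd5 was at 12.6, 10.2, 13.6 and 12.7 RPKM in the 4 Fvb/N basal libraries and at 2.59, 2.53, 5.86 and 3.04 RPKM in the 4 suprabasal ones, a change of −1.61 (SE 0.22, adjusted p = 0.000193). Smyd3 was at 1.77, 1.93, 2.95 and 3.298 RPKM in the 4 Fvb/N basal libraries and at 1.23, 1.16, 1.89 and 1.41 RPKM in the 4 suprabasal ones. These fractions overlapped, and the fall of −0.51 (SE 0.17, adjusted p = 0.024) was lost without any 1 of 5 libraries (basal 3 or 4, suprabasal 1, 2 or 4, adjusted p up to 0.0701). Setd7 was at 8.57 ± 0.202 RPKM (SD, n = 4) in Fvb/N basal and 8.39 ± 1.53 in suprabasal libraries, −0.040 (SE 0.13, adjusted p = 0.789).

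In the Dlx3 mice Setd7 was at 7.96 and 7.02 RPKM in WT basal, 9.23 and 9.39 in WT suprabasal, 7.69 and 7.15 in KO basal and 8.23 and 8.38 in KO suprabasal. Both suprabasal groups were above the basal ones, 0.28 (SE 0.055, adjusted p = 0.000864) in WT and 0.14 (SE 0.055, adjusted p = 0.032) in KO, where the call was lost without KO basal replicate 2 or either KO suprabasal library (adjusted p up to 0.189). Smyd5 was at 12.7 and 13.7 RPKM in WT basal, 8.45 and 8.36 in WT suprabasal, 12.4 and 12.2 in KO basal and 7.87 and 7.596 in KO suprabasal, with −0.59 (SE 0.041, adjusted p = 5.51e-07) in WT and −0.61 (SE 0.041, adjusted p = 4.58e-07) in KO. Smyd2 was at 23.8 and 24.6 RPKM in WT basal, 18.9 and 17.8 in WT suprabasal, 24.7 and 24.2 in KO basal and 17.8 and 18.2 in KO suprabasal, with −0.38 and −0.42 on the log2 scale. Smyd2 and Smyd3 fell as deposited but not under every scaling. Smyd3 was at 2.88 and 2.99 RPKM in WT basal, 2.05 and 1.95 in WT suprabasal, 2.71 and 2.82 in KO basal and 1.897 and 1.996 in KO suprabasal, with −0.39 and −0.35.

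The H3K4 demethylases went in opposite directions. Kdm1a (LSD1) and Kdm1b (LSD2) remove mono- and dimethylation, and Kdm5a and Kdm5b remove di- and trimethylation. Kdm5b was at 25.7, 25.3, 17.4 and 19.4 RPKM in the 4 Fvb/N basal libraries and at 32.1, 28.6, 38.3 and 31.98 RPKM in the 4 suprabasal ones. Every suprabasal library was above every basal one, and basal replicates 1 and 2, which held the more suprabasal marker RNA, were above replicates 3 and 4. Suprabasal replicate 3, which had the highest Kdm5b value, held the least suprabasal marker RNA of its group, 44495 against 78988 to 95727 summed RPKM. The part of these marker levels in the rise was not tested. The rise was 0.57 (SE 0.16, adjusted p = 0.00878) as deposited and 1.19 after rescaling. It was 0.24 (adjusted p = 0.0432) within the labels' earlier run, 0.89 (adjusted p = 0.0101) within the later one and 0.49 (adjusted p = 0.016) without suprabasal replicate 3. Kdm5a was at 10.4, 10.7, 12.5 and 14.8 RPKM in the 4 Fvb/N basal libraries and at 5.54, 5.39, 9.58 and 5.05 RPKM in the 4 suprabasal ones, a change of −0.85 (SE 0.197, adjusted p = 0.00359) that fell short of a call after rescaling, at −0.27. Kdm1a was at 40.3, 42.1, 46.5 and 50.6 RPKM in the 4 Fvb/N basal libraries and at 19.8, 19.1, 30.1 and 18.3 RPKM in the 4 suprabasal ones, a change of −1.03 (SE 0.17, adjusted p = 0.000508), called under every scaling. Kdm1b was at 9.302 ± 0.844 and 8.68 ± 0.879 RPKM (SD, n = 4), −0.091 (SE 0.12, adjusted p = 0.496).

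In the Dlx3 table Kdm5b was at 19.8 and 19.9 RPKM in WT basal, 34.3 and 34.95 in WT suprabasal, 20.8 and 20.5 in KO basal and 35.7 and 37.4 in KO suprabasal. It rose by 0.77 (SE 0.030, adjusted p = 9.91e-09) in WT and 0.796 (SE 0.030, adjusted p = 9.10e-09) in KO, and by 1.195 and 1.21 after rescaling. Kdm5a was at 11.7 and 10.9 RPKM in WT basal, 9.37 and 9.06 in WT suprabasal, 11.6 and 11.6 in KO basal and 8.01 and 8.54 in KO suprabasal, with −0.27 (SE 0.044, adjusted p = 0.000243) and −0.44 (SE 0.044, adjusted p = 7.35e-06), and its WT value turned to 0.13 after rescaling. Kdm1a was at 47.2 and 46.7 RPKM in WT basal, 29.1 and 28.3 in WT suprabasal, 43.95 and 43.8 in KO basal and 27.7 and 26.9 in KO suprabasal, with −0.69 (SE 0.026, adjusted p = 8.40e-09) and −0.67 (SE 0.026, adjusted p = 1.16e-08), under every scaling. In all of these genes the fractions were apart in both genotypes. Kdm1b was at 8.898 and 8.76 RPKM in WT basal, 8.18 and 8.25 in WT suprabasal, 8.62 and 9.07 in KO basal and 8.62 and 8.75 in KO suprabasal, with −0.093 (SE 0.036, adjusted p = 0.0339) and −0.023 (SE 0.036, adjusted p = 0.55). Its WT call was lost without any 1 of the 4 WT libraries. The ratio of Kdm5b to Kdm5a within a library, taken in the same way, was 2.48, 2.36, 1.396 and 1.31 in Fvb/N basal and 5.79, 5.302, 4.0003 and 6.33 in suprabasal libraries. It was 1.69 and 1.82 in WT basal, 3.65 and 3.86 in WT suprabasal, 1.79 and 1.77 in KO basal and 4.45 and 4.38 in KO suprabasal libraries. Every suprabasal library was above every basal one in both tables, and both KO suprabasal libraries were above both WT ones.

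Kdm3a and Kdm3b remove mono- and dimethylation of H3K9, Kdm4a, Kdm4b and Kdm4c remove trimethylation of H3K9 and H3K36, and Phf8 removes dimethylation of H3K9 and monomethylation of H4K20. In Fvb/N 4 of the 6 fell, 1 of them (Kdm3b) under every scaling, and Kdm4b and Kdm4c were not called. Kdm3b was at 16.6, 13.6, 19.1 and 20.4 RPKM in the 4 Fvb/N basal libraries and at 3.67, 3.27, 9.04 and 4.12 RPKM in the 4 suprabasal ones, a change of −1.69 (SE 0.26, adjusted p = 0.000421). Of its exon bases 24.6% lie under Gm26538 on the other strand, so its values carry the same limit as those of Smyd2. Kdm4a was at 23.997, 23.7, 24.6 and 22.7 RPKM in the 4 Fvb/N basal libraries and at 13.98, 12.7, 17.3 and 12.6 RPKM in the 4 suprabasal ones, a change of −0.72 (SE 0.12, adjusted p = 0.000608). Phf8 was at 4.99, 4.497, 4.27 and 4.84 RPKM in the 4 Fvb/N basal libraries and at 2.47, 2.31, 3.14 and 2.31 RPKM in the 4 suprabasal ones, a change of −0.67 (SE 0.12, adjusted p = 0.00076). The fractions of all 3 did not overlap, but the changes of Kdm4a and Phf8 were −0.102 and −0.17 after rescaling. Kdm3a, Kdm4b and Kdm4c changed by −0.79, −0.21 and −0.198 on the log2 scale as deposited.

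In the Dlx3 table Kdm3b was at 20.3 and 19.6 RPKM in WT basal, 11.9 and 11.6 in WT suprabasal, 20.1 and 19.9 in KO basal and 11.1 and 11.1 in KO suprabasal, with fraction changes of −0.72 (SE 0.030, adjusted p = 1.85e-08) in WT and −0.799 (SE 0.030, adjusted p = 1.01e-08) in KO. Kdm4a was at 23.5 and 24.2 RPKM in WT basal, 18.3 and 18.1 in WT suprabasal, 24.1 and 23.6 in KO basal and 17.3 and 17.7 in KO suprabasal, with −0.37 (SE 0.029, adjusted p = 1.34e-06) and −0.42 (SE 0.029, adjusted p = 5.17e-07). Kdm3a was at 17.9 and 16.8 RPKM in WT basal, 13.4 and 13.4 in WT suprabasal, 18.96 and 17.7 in KO basal and 12.7 and 12.4 in KO suprabasal, with −0.35 (SE 0.041, adjusted p = 2.39e-05) and −0.51 (SE 0.041, adjusted p = 1.43e-06). All 3 were lower in every suprabasal library, and Kdm3b alone of them under every scaling in both genotypes. Phf8 was at 4.74 and 4.51 RPKM in WT basal, 3.65 and 3.58 in WT suprabasal, 4.28 and 4.19 in KO basal and 3.52 and 3.44 in KO suprabasal, with −0.29 and −0.23 on the log2 scale. Kdm4b rose, from 10.7 ± 0.0431 to 11.99 ± 0.308 RPKM in WT (SD, n = 2), 0.15 (SE 0.036, adjusted p = 0.00294), and by 0.12 (SE 0.036, adjusted p = 0.011) in KO, where the call was lost without KO basal replicate 1 or KO suprabasal replicate 2. Kdm4c changed by −0.065 (SE 0.038, adjusted p = 0.132) in WT and −0.12 (SE 0.038, adjusted p = 0.0151) in KO, the latter lost without KO basal replicate 2 or KO suprabasal replicate 1. Within a library the ratio of Kdm3a to Kdm3b was 1.04, 1.303, 1.08 and 1.09 in Fvb/N basal and 2.82, 2.85, 1.82 and 2.04 in suprabasal libraries, and 0.868 ± 0.0162 and 1.14 ± 0.0207 in WT (SD, n = 2). The ratio of Kdm4a to Kdm4b went the other way, from 1.89 ± 0.146 to 1.302 ± 0.111 in Fvb/N (n = 4) and from 2.23 ± 0.0505 to 1.52 ± 0.0537 in WT. Neither ratio overlapped between fractions.

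The last pair are Kdm2a, which removes dimethylation of H3K36, and Kdm6b, which removes H3K27 trimethylation. Kdm6b was at 29.7, 23.4, 25.5 and 24.01 RPKM in the 4 Fvb/N basal libraries and at 9.78, 8.11, 12.8 and 10.1 RPKM in the 4 suprabasal ones, a fall of −1.26 (SE 0.15, adjusted p = 0.000109) that was called under every scaling. Kdm2a was at 22.8, 23.9, 20.98 and 22.6 RPKM in the 4 Fvb/N basal libraries and at 14.02, 12.7, 17.7 and 12.2 RPKM in the 4 suprabasal ones, a change of −0.65 (SE 0.13, adjusted p = 0.00159) that came to −0.033 after rescaling. In the Dlx3 table Kdm6b was at 20.98 and 20.6 RPKM in WT basal, 15.99 and 16.3 in WT suprabasal, 20.4 and 20.8 in KO basal and 15.4 and 15.3 in KO suprabasal, with −0.35 (SE 0.028, adjusted p = 1.82e-06) in WT and −0.402 (SE 0.028, adjusted p = 6.26e-07) in KO. Both fractions were apart in both genotypes, but after rescaling the values were 0.071 and 0.00071. Kdm2a was at 23.03 and 22.5 RPKM in WT basal, 18.5 and 18.5 in WT suprabasal, 23.4 and 22.96 in KO basal and 17.4 and 17.5 in KO suprabasal, with −0.29 (SE 0.027, adjusted p = 4.70e-06) and −0.39 (SE 0.027, adjusted p = 5.02e-07), and 0.13 and 0.013 after rescaling.

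**Figure D2:**
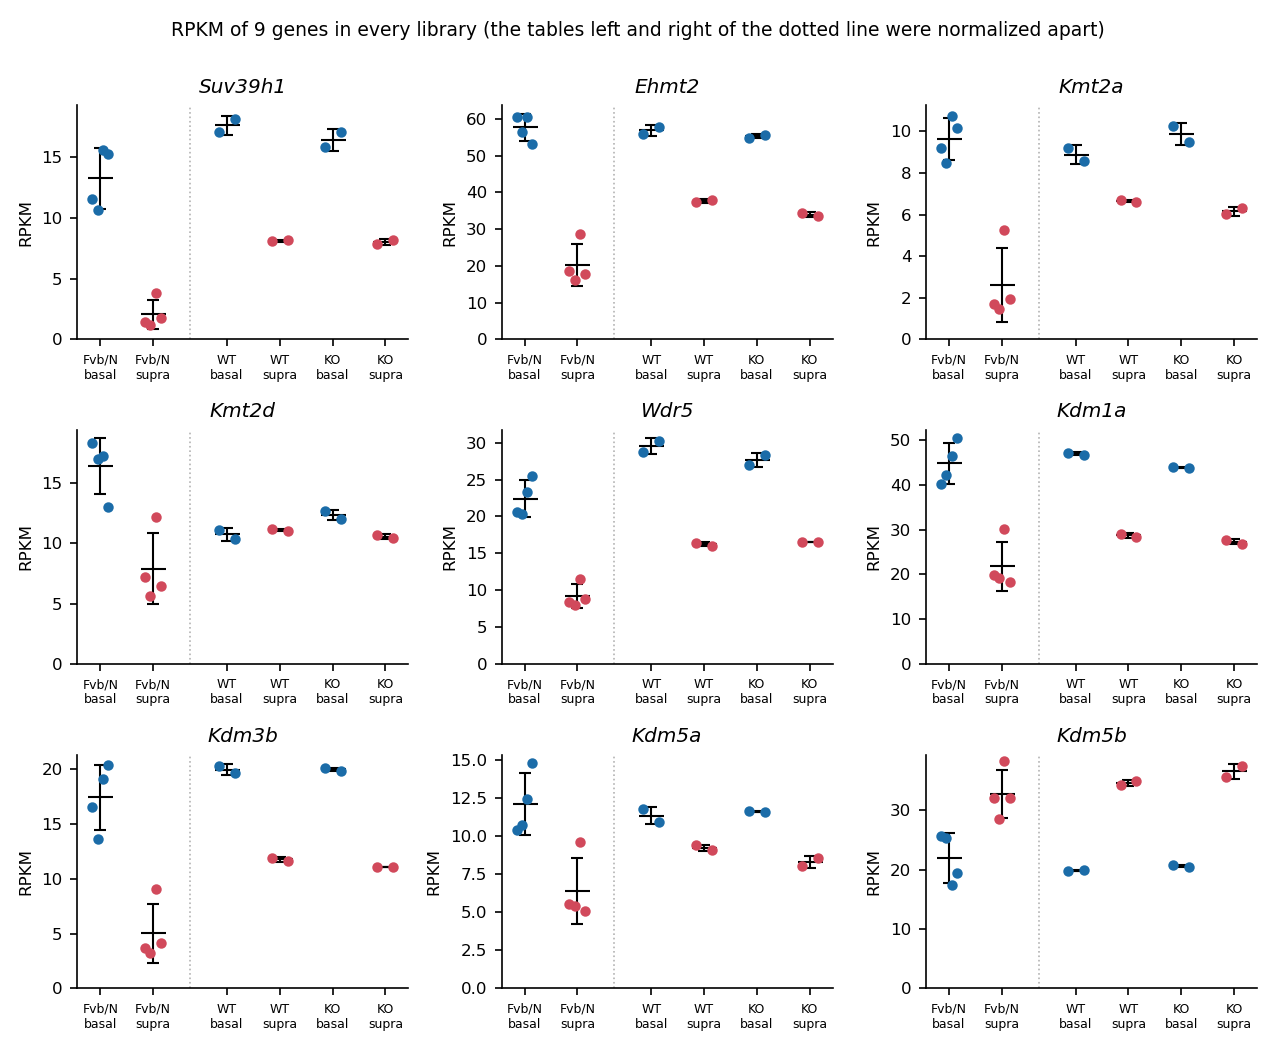
RPKM of 9 of the genes in every library (linear axes from 0); points are libraries, blue for basal and red for suprabasal, bars are the mean and SD of a group of 4 (Fvb/N) or 2 (WT, KO). Suv39h1, Ehmt2, Wdr5, Kdm1a and Kdm3b are lower and Kdm5b is higher in every suprabasal library than in the basal libraries of the same mice, and Fvb/N suprabasal replicate 3 is the highest of its group in all 9 panels.

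Between Dlx3 KO and WT basal cells 1 of the 39 genes was called, Kmt2d, which was higher in KO, beside 4.23% of all genes called higher and 2.98% lower. No gene of the 39 was called lower by limma, where 5 had an unadjusted p under 0.05. Kmt2d was at 11.1 and 10.4 RPKM in the WT basal and 12.7 and 12.1 RPKM in the KO basal libraries, which do not overlap, a log2 change of 0.19 (SE 0.041, adjusted p = 0.0264). The call held under all 3 scalings, beside 4.07% of all genes higher and 1.67% lower under all 3, and after centring on transcript length, 0.18 (adjusted p = 0.0129), but was lost without WT basal replicate 2 or KO basal replicate 1, or with no filter on low values. The other 38 log2 fold changes lay between −0.11 for Suv39h2 and 0.14 for Kmt2a, whose adjusted p were 0.211 and 0.141, around a median of 0.00057 for the 39 genes and −0.019 for all genes. Markers of suprabasal keratinocytes were higher in KO basal libraries (8 of 8 rose), at 5957 to 6040 against 4037 to 4067 summed RPKM, and 5 of 5 erythroid markers tested fell, at 41.9 to 42.1 against 93.9 to 99.5. Of 4 fibroblast markers 2 fell, at 121 to 127 against 135 to 139, and of 7 melanocyte markers 3 rose, at 109.8 to 112 against 98.2 to 98.3. Of 10 cycling cell markers 2 fell, and of the Langerhans and macrophage, T cell and inner root sheath lists 1 each. Whether these bear on Kmt2d was not tested.

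In suprabasal cells 13 of the 39 genes fell in KO and none rose, beside 15.7% and 21.6% of all genes, and the median was −0.082 against 0.0089 over all genes. Besides the 0 rises called by limma, 2 genes had an unadjusted p under 0.05 in that direction, and Kdm5b rose after median-ratio rescaling. The 13 genes were the enzymes Kmt2b, Kmt2e and Setd1a, the subunits Rbbp5, Ncoa6 and Paxip1, the H3K9 writers Ehmt1 and Ehmt2, Ash1l, Nsd1 and Dot1l of the H3K36 and H3K79 group, and the demethylases Kdm5a and Kdm2a. All but Kdm2a were called under each of the 3 scalings, beside 14.6% of all genes that fell and 15.3% that rose under each. The largest of these falls was that of Kmt2b, at 19.2 and 19.5 RPKM in WT and 16.6 and 16.3 RPKM in KO suprabasal libraries, −0.22 (SE 0.031, adjusted p = 0.000912). Setd1a went from 16.3 and 16.1 to 14.5 and 14.03 RPKM, −0.17 (SE 0.030, adjusted p = 0.00275), and Kmt2e changed by −0.14 (SE 0.030, adjusted p = 0.00613). Among the subunits Paxip1 went from 8.88 and 8.65 to 7.64 and 7.83 RPKM, −0.16 (SE 0.034, adjusted p = 0.00647), and Rbbp5 from 9.41 and 9.27 to 7.99 and 8.48 RPKM, −0.16 (SE 0.036, adjusted p = 0.00797). The KO libraries were below the WT ones in each of these genes. Ehmt2 and Ehmt1, the 2 partners of 1 complex, changed by −0.14 (SE 0.028, adjusted p = 0.00389) and −0.13 (SE 0.033, adjusted p = 0.0168). Nsd1, Ash1l and Dot1l changed by −0.17, −0.17 and −0.16 on the log2 scale (adjusted p between 0.00505 and 0.00666), and Ncoa6, Kdm5a and Kdm2a by −0.13, −0.14 and −0.082. Single libraries decided some of the calls. Rbbp5 was not called without KO suprabasal replicate 1, Ncoa6 without WT or KO suprabasal replicate 2, Ehmt1 without WT suprabasal replicate 2 or KO suprabasal replicate 1, Kdm5a without either WT suprabasal library or KO suprabasal replicate 1, and Kdm2a without any 1 of the 8 libraries. Leaving out 1 library at a time gave 9 to 14 falls, beside 9.7% to 15% of all genes. The H3K9 demethylases and the Setd7 and Smyd group held no call.

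Several cell type markers differed between the same libraries. Melanocyte markers were higher in KO suprabasal cells (7 of 7 tested rose), at 97.7 to 98.5 against 64.04 to 64.3 summed RPKM, as were those of Langerhans cells and macrophages (7 of 8), at 229.9 to 232 against 155 to 157, and suprabasal keratinocyte markers (8 of 8), at 54126 to 54461 against 46699 to 47012. Inner root sheath markers were lower (5 of 5 fell), at 7.23 to 7.51 against 29.9 to 30.1, and 6 of 8 basal keratinocyte markers fell, at 7586 to 7669 against 8383 to 8473, while 5 of 10 cycling cell markers rose, at 249 to 249.5 against 238 to 240.4. Fibroblast markers were higher (3 of 4 tested rose), at 61.5 to 63.3 against 45.2 to 46.4 summed RPKM. Their part in the falls of the 39 genes was not tested.

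**Figure D3:**
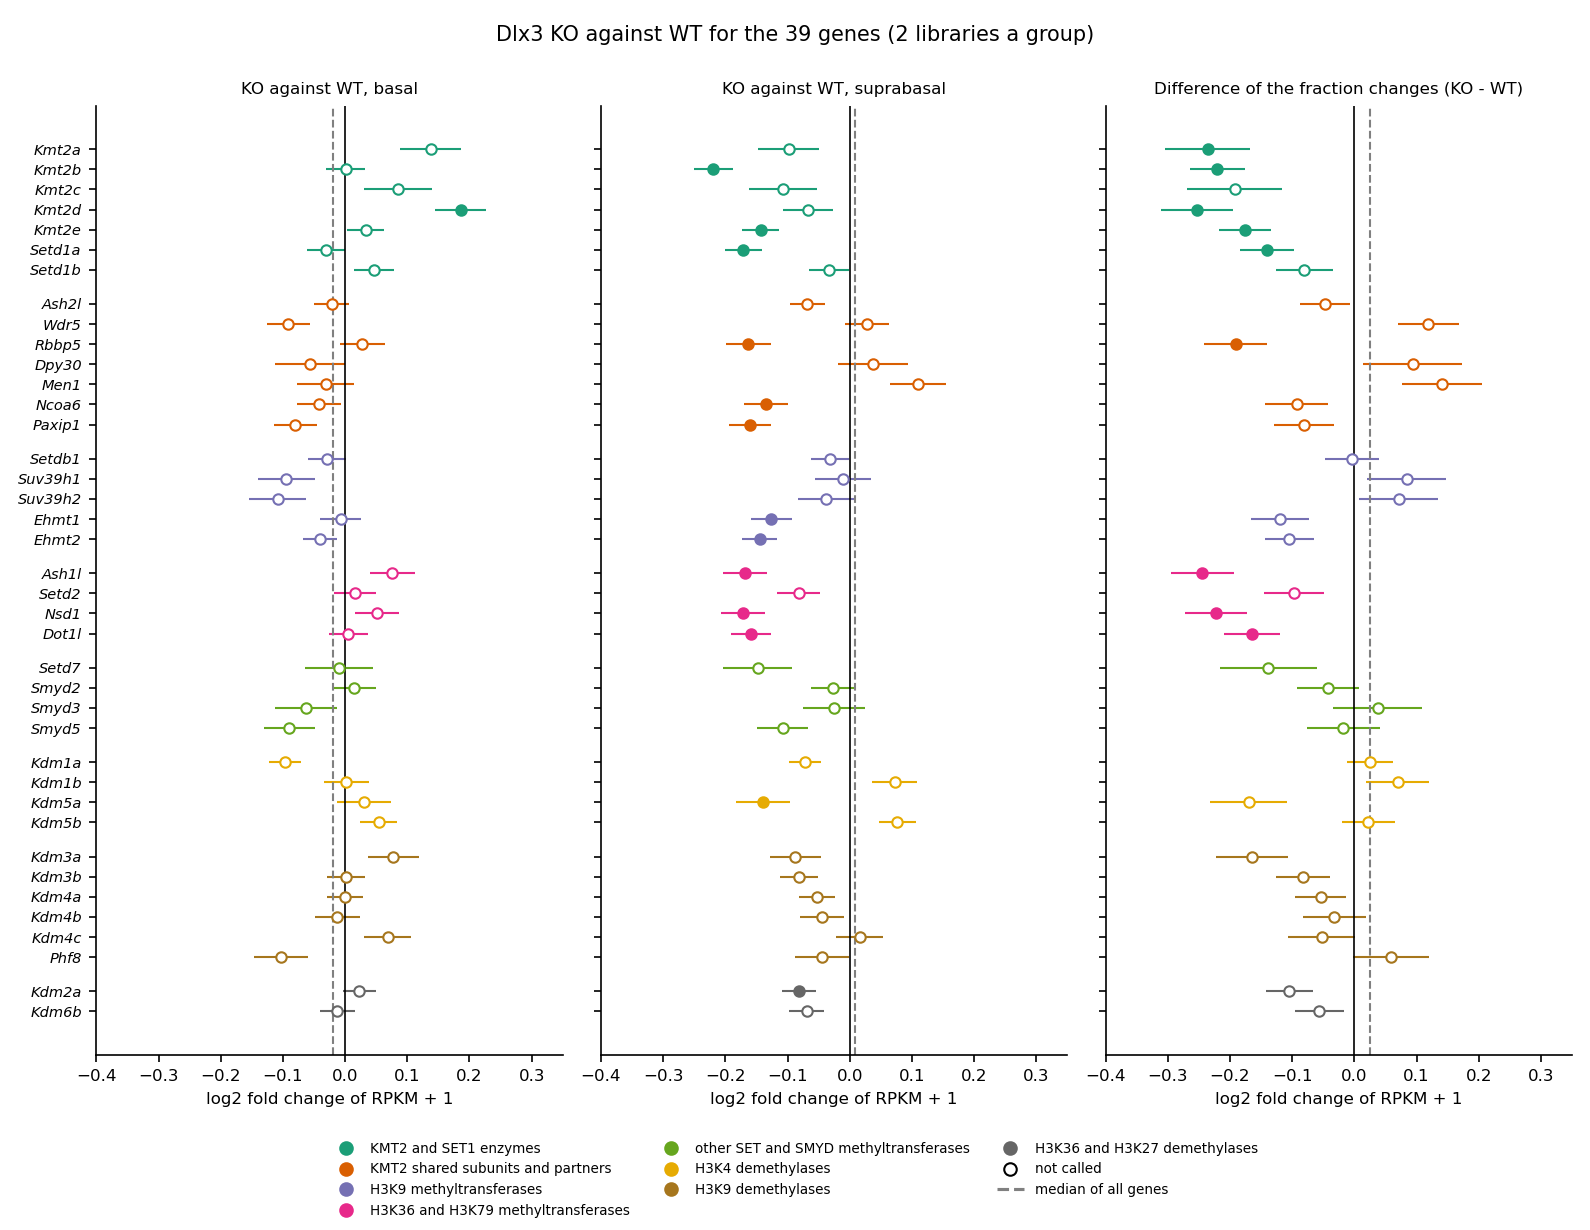
Log2 fold change of RPKM + 1 between Dlx3 KO and WT for each of the 39 genes in basal cells, in suprabasal cells, and the KO minus WT difference of the suprabasal against basal change. Points are limma estimates with their standard error (2 libraries a group), open where not called, and the dashed line is the median over all genes. Kmt2d is the 1 gene called in basal cells, 13 genes fell in suprabasal cells and 9 differed in the last panel.

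The change between fractions itself differed by genotype, tested as the interaction of both factors, for 9 of the 39 genes, each with a more negative change in KO, beside 8.08% of all genes in that direction and 14.4% in the other. The median was −0.081 against 0.025 over all genes. The called genes were 5 of the 7 KMT2 and SET1 enzymes, the subunit Rbbp5, and Ash1l, Nsd1 and Dot1l, and all 9 were called under each of the 3 scalings, beside 7.78% of all genes lower and 8.19% higher. No gene was called in the other direction by limma, where 1 had an unadjusted p under 0.05. The 9 include none of the 12 demethylases. For so few genes this lies near the 8.08% of all genes called lower, and no contrast between writers and demethylases is read from it. Kmt2d differed most, 0.045 in WT against −0.21 in KO on the log2 scale, a difference of −0.25 (SE 0.057, adjusted p = 0.0154). Kmt2b changed by 0.097 in WT and −0.12 in KO, a difference of −0.22 (SE 0.044, adjusted p = 0.00903), and Kmt2a by −0.37 and −0.603, a difference of −0.24 (SE 0.069, adjusted p = 0.0391). In Kmt2d the KO basal libraries were the high ones, and in Kmt2b the KO suprabasal libraries were the low ones. Ash1l changed by −0.43 and −0.68, a difference of −0.24 (SE 0.051, adjusted p = 0.0106). Nsd1 and Dot1l differed by −0.22 (SE 0.050, adjusted p = 0.0149) and −0.16 (SE 0.045, adjusted p = 0.0317). Rbbp5 differed by −0.19 (SE 0.051, adjusted p = 0.0287), Kmt2e by −0.18 (SE 0.042, adjusted p = 0.0193) and Setd1a by −0.14 (SE 0.043, adjusted p = 0.0458). On build GRCm38 Kmt2d (ENSMUSG00000048154.17) lies at chr15:98831669-98871204 on the minus strand, Kmt2b (ENSMUSG00000006307.16) at chr7:30568858-30588726 on the minus strand and Ash1l (ENSMUSG00000028053.13) at chr3:88950622-89079375 on the plus strand. Kmt2b and Ash1l were called whichever library was left out (adjusted p up to 0.0334 and 0.0424), and every other gene of the 9 lost its call without at least 1 library. The count was 2 without WT basal replicate 2 or KO basal replicate 1, 4 without WT suprabasal replicate 1 or KO suprabasal replicate 1, and 5 without WT suprabasal replicate 2. The share of all genes called lower fell too, from 8.08% to 4.51% and 4.64%, to 5.03% and 5.65%, and to 4.84% in these fits. With no filter on low values the count was 4, beside 3.32% of all genes. Marker lists moved with the same comparison: 5 of 5 inner root sheath, 6 of 8 basal and 6 of 8 suprabasal keratinocyte markers were called lower, and 7 of 8 Langerhans and macrophage, 6 of 10 cycling cell, 4 of 7 melanocyte, 4 of 4 fibroblast, 1 of 2 T cell and 5 of 5 erythroid markers higher. Their part in the 9 differences was not tested.

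Transcript length moved with both genotype results over all genes. In the interaction the median log2 value of all genes went from 0.11 where the longest transcript is under 2 kb to −0.097 at 8 kb or more, and the share of genes called lower from 5.62% to 17.3%. In the KO against WT comparison of suprabasal cells the medians went from 0.078 to −0.071 and the share lower from 7.66% to 33.6%. The longest transcripts of the 39 genes run from 0.789 kb (Dpy30) to 19.8 kb (Kmt2d). Of the 11 at 8 kb or more, 5 were called in the interaction, beside the 17.3% of all genes of that class, and 5 fell in suprabasal KO cells, beside 33.6%. With each library centred on the median of its length class, an alternative chosen after seeing the data, 7 of the 39 genes fell in KO suprabasal cells (13.1% of all genes) and 2 rose (22.6%). Kmt2b was still called, at −0.14 (adjusted p = 0.00472), as were Setd1a, Rbbp5, Paxip1, Ehmt1, Ehmt2 and Ash1l, and the rises were Kdm5b, 0.16 (adjusted p = 0.00437), and Kdm1b, 0.11 (adjusted p = 0.0391). The interaction then had 4 calls, beside 8.33% of all genes lower: Rbbp5, −0.22 (adjusted p = 0.0193), Ash1l, −0.16 (adjusted p = 0.0294), Kmt2d, −0.17 (adjusted p = 0.0414), and Kmt2b, −0.13 (adjusted p = 0.0436). Kmt2a, Kmt2e, Setd1a, Nsd1 and Dot1l were no longer called, and 11.6% of all genes were higher. In basal cells Kmt2d stayed the 1 rise, beside 5.53% of all genes higher and 2.08% lower. Between fractions the same centring left 7 rises and 17 falls of the 39 in Fvb/N (33.1% and 33.2% of all genes), 13 and 14 in WT (40.4% and 40.0%) and 11 and 19 in KO (39.9% and 39.1%).

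**Figure D4:**
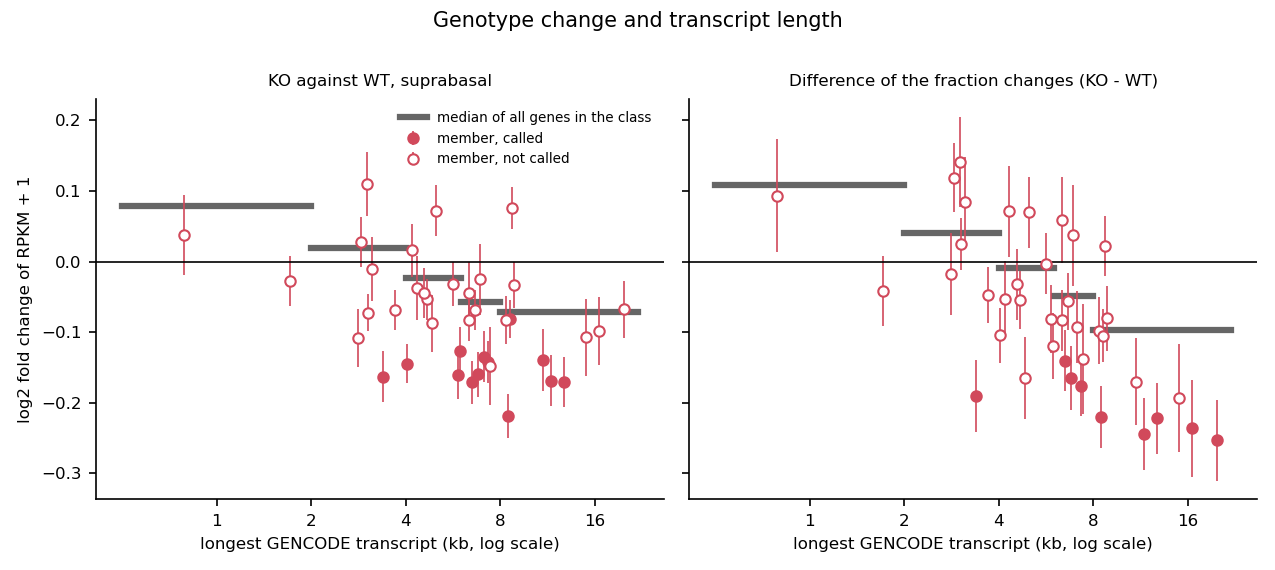
Log2 fold change of RPKM + 1 of the 39 genes (points with standard errors, filled where called) against the length of their longest annotated transcript on a log axis, for KO against WT in suprabasal cells and for the KO minus WT difference of the fraction changes. Grey bars are medians of all genes in 5 length classes and fall from 0.078 to −0.071 and from 0.11 to −0.097.

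Other genes of histone lysine methylation, 25 tested in each table, gave 16 falls and 2 rises in Fvb/N, 20 and 4 in WT, and 21 and 4 in KO between fractions, beside the shares of all genes above. Of the other partners of these enzymes 29 of 30 fell in Fvb/N and 30 of 31 in each Dlx3 genotype, beside the same shares. The counts and changes given for both lists are those of the deposited RPKM alone. How many of these calls hold under all 3 scalings was not counted. Nsd2, an H3K36 methyltransferase related to Nsd1, fell in all 3, from 10.2 ± 1.76 to 1.08 ± 0.928 RPKM in Fvb/N (SD, n = 4), −2.51 (SE 0.27, adjusted p = 8.28e-05), and by −1.103 (SE 0.034, adjusted p = 2.43e-09) in WT and −1.06 (SE 0.034, adjusted p = 3.37e-09) in KO. Phf2, an H3K9 demethylase related to Phf8, changed by −1.69 (SE 0.23, adjusted p = 0.000189), −0.73 (SE 0.029, adjusted p = 1.10e-08) and −0.77 (SE 0.029, adjusted p = 8.96e-09). Prdm9, an H3K4 methyltransferase known from meiosis, was low and rose from 2.31 ± 0.454 to 4.05 ± 0.688 RPKM in Fvb/N, 0.61 (SE 0.15, adjusted p = 0.00461), and by 0.58 (SE 0.061, adjusted p = 1.14e-05) in WT. Setd6 rose by 0.58 (SE 0.19, adjusted p = 0.0203) in Fvb/N and 0.34 (SE 0.047, adjusted p = 7.44e-05) in KO, and Kdm7a, related to Phf8, by 0.58 (SE 0.051, adjusted p = 3.22e-06) in WT and 0.44 (SE 0.051, adjusted p = 2.32e-05) in KO. Among the partners Mllt6 changed by −2.89 (SE 0.32, adjusted p = 9.77e-05) in Fvb/N and −1.17 (SE 0.031, adjusted p = 1.07e-09) in KO, and Morf4l1, a reader of H3K36 methylation, by −2.62 (SE 0.45, adjusted p = 0.000735), −1.35 (SE 0.029, adjusted p = 2.73e-10) and −1.32 (SE 0.029, adjusted p = 3.35e-10). Cbx3, a heterochromatin protein that binds methylated H3K9, changed by −1.31 (SE 0.022, adjusted p = 5.34e-11) in WT, and Hmg20b, of the Kdm1a complex, rose by 0.24 (SE 0.033, adjusted p = 7.60e-05) in WT and 0.22 (SE 0.033, adjusted p = 0.000176) in KO. Between genotypes limma called no other methylation gene in basal cells, where 1 had an unadjusted p under 0.05, and 1 partner fell, Cbx3, −0.12 (SE 0.022, adjusted p = 0.00912). In suprabasal cells 8 of the 25 methylation genes fell in KO and 1 rose, and 13 of the 31 partners fell, beside 15.7% of all genes lower and 21.6% higher. The extremes were Prdm9, −0.32 (SE 0.061, adjusted p = 0.00406), Setd4, −0.196 (SE 0.050, adjusted p = 0.0155), Riox1, 0.22 (SE 0.048, adjusted p = 0.0072), Aff1, a partner of elongation complexes, −0.29 (SE 0.037, adjusted p = 0.000573), and Rcor1, of the Kdm1a complex, −0.23 (SE 0.040, adjusted p = 0.00262). In the interaction 2 of the 25 were lower, Prdm9, −0.33 (SE 0.087, adjusted p = 0.0271), and Setd5, −0.14 (SE 0.039, adjusted p = 0.0393). Of the 31 partners 3 were lower and 2 higher, beside 8.08% of all genes lower and 14.4% higher, with Phf21a at −0.25 (SE 0.051, adjusted p = 0.00888), Aff1 at −0.24 (SE 0.053, adjusted p = 0.0141), Pagr1a at 0.22 (SE 0.061, adjusted p = 0.0309) and Cbx3 at 0.19 (SE 0.031, adjusted p = 0.0044).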

How the data were processed

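RPKM tables of 16 libraries in 6 groups were used as the authors deposited them. Per the file headers, reads were mapped to mm10 with TopHat and RPKM were calculated in Partek. Tools named in the submitters' processing notes are bcl2fastq 2.20.0.422, TopHat2 2.1.1 and Partek. The annotation, the strand setting and the rule for reads with several places are not given in the sources used here. RPKM were taken as log2(RPKM + 1), so changes of low genes are understated. Genes with RPKM of at least 1 in at least 4 (Fvb/N, 11608) or 2 libraries (Dlx3, 12146) were fitted with limma-trend (limma 3.58.1 under R 4.3.3). Residual degrees of freedom were 6 (prior 3.2) for Fvb/N and 4 (prior 4.8) for Dlx3, whose 4 groups share 1 estimate of the spread. Adjusted p is Benjamini-Hochberg over all genes tested, two-sided.

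Depth is estimated from the smallest step of RPKM times length over genes with 1 annotated transcript. Only 63.1% to 67.5% of low values came out within 0.1 of whole reads, so the groups were compared with no count test. Replicate pairs alone were also compared by a chi-square of reads rebuilt from RPKM over 1017 to 1081 genes of 1 annotated transcript, at least 50 reads in the pair and near-whole values (within 0.1, widening in proportion above 20 reads), and every pair differed by more than counting noise (Python 3.11.15, pandas 2.3.3, numpy 2.4.6, matplotlib 3.10.9). Positions, lengths and overlaps are from GENCODE M21 (GRCm38), promoters from RefSeq (GRCm38.p6). The 39 genes and the lists were chosen with earlier results of these data known. All 39 are named by role. Every library's value is given for up to 3 genes a role with the smallest p in Fvb/N and up to 2 in each Dlx3 comparison, and of the other pathway lists up to 2 called genes a direction and comparison with the largest change are named. Alternatives were pseudocount 0.1, no filter, median-ratio rescaling, quantile normalization, each library left out, a replicate block, run code terms and, chosen after seeing the data, centring within transcript length classes. Same-numbered Fvb/N libraries deviate together, with correlations across genes of 0.51, 0.57, 0.56 and 0.12. By a threshold of 0.1 the numbers were taken to pair the Fvb/N samples, but only in the replicate block alternative. The Fvb/N fits reported as the main result hold no pairing or run term. Differently numbered libraries of the same labelled run correlate up to 0.587 (basal 2 with suprabasal 1) and 0.467 (basal 4 with suprabasal 3), so the correlations follow the run as well as the number.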

Additional observations from a re-analysis of the deposited data

Results flagged for a closer look

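In Fvb/N suprabasal replicate 3, 12 of the 39 genes were far above the other 3 suprabasal libraries, by Dixon's criterion for a group of 4. The values were 5.24 RPKM for Kmt2a, 7.03 RPKM for Kmt2c, 13.04 RPKM for Setdb1, 1.001 RPKM for Suv39h2, 10.3 RPKM for Ehmt1, 8.31 RPKM for Ash1l, 8.87 RPKM for Setd2, 12.8 RPKM for Nsd1, 5.86 RPKM for Smyd5, 30.1 RPKM for Kdm1a, 9.58 RPKM for Kdm5a and 9.04 RPKM for Kdm3b. The other 3 libraries held 1.46 to 1.96 RPKM of Kmt2a and 18.3 to 19.8 RPKM of Kdm1a. The same library held the most basal keratinocyte marker RNA of its group, 4074 summed RPKM against 738 to 1463, and the least suprabasal marker RNA, 44495 against 78988 to 95727. The part of these marker levels in the 12 values was not tested. Without the library 33 of the 39 genes fell and 1 rose in suprabasal cells, beside 64.1% and 15.6% of all genes. Setdb1 was low in Fvb/N basal replicate 2, at 18.9 RPKM against 19.8 to 19.9, and Suv39h2 in basal replicate 1, at 1.92 RPKM against 2.42 to 2.46. The check took each of the 39 genes in the same basal and suprabasal groups of 4 libraries, 78 sets of values, of which 14 were marked. Chance marks about 1 in 20 of independent sets. Genes of the same libraries are not independent, so the 14 cannot be set against that rate. Suprabasal replicate 3 also had the highest median ratio over all genes of its group, 0.997 against 0.715 to 0.787. The share of all genes marked in this way was not taken.

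The suprabasal against basal change differed between the Dlx3 genotypes by the test of the difference for 9 genes. The KO minus WT difference on the log2 scale was −0.24 for Kmt2a, −0.22 for Kmt2b, −0.25 for Kmt2d, −0.18 for Kmt2e, −0.14 for Setd1a, −0.19 for Rbbp5, −0.24 for Ash1l, −0.22 for Nsd1 and −0.16 for Dot1l. All are below 0, and transcript length, which moved with this comparison over all genes, is given beside them in the results.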

How the results depend on the processing

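Of 3432 values of single genes under the alternatives, 3151 kept their direction and their side of the threshold, 156 lost a call, 29 gained one and 96 changed sign with a call under at least 1 setting. A further 68 sign changes, counted with the 3151, were called under neither setting. All 96 belong to the rescaling, quantile and length centring settings, which move the median of all genes up between fractions. Counts of genes are followed, in parentheses, by the percentage of all genes that rose, fell or rose and fell in the same fit. After median-ratio rescaling 6 genes rose and 20 fell between the fractions in Fvb/N (all genes 29.7% and 35.2%), and the log2 fold changes that turned positive were 0.47 (Dpy30), 0.54 (Setd7), 0.495 (Kdm1b), 0.39 (Kdm4b) and 0.37 (Kdm4c). After median-ratio rescaling 15 genes rose and 13 fell between the fractions in WT (all genes 37.5% and 42.7%), and the log2 fold changes that turned positive were 0.022 (Kmt2a), 0.32 (Kmt2c), 0.099 (Kmt2e), 0.14 (Setd1a), 0.24 (Setd1b), 0.14 (Men1), 0.072 (Nsd1), 0.039 (Dot1l), 0.038 (Smyd2), 0.300 (Kdm1b), 0.13 (Kdm5a), 0.063 (Kdm3a), 0.050 (Kdm4a), 0.32 (Kdm4c), 0.068 (Phf8), 0.13 (Kdm2a) and 0.071 (Kdm6b). After median-ratio rescaling 10 genes rose and 20 fell between the fractions in KO (all genes 37.2% and 42.8%), and the log2 fold changes that turned positive were 0.28 (Kmt2b), 0.12 (Kmt2c), 0.18 (Kmt2d), 0.15 (Setd1b), 0.27 (Men1), 0.36 (Kdm1b), 0.25 (Kdm4c), 0.11 (Phf8), 0.013 (Kdm2a) and 0.00071 (Kdm6b). After quantile normalization 5 genes rose and 21 fell between the fractions in Fvb/N (all genes 31.2% and 34.1%), and the log2 fold changes that turned positive were 0.046 (Kmt2c), 0.58 (Setd7), 0.17 (Smyd3), 0.51 (Kdm1b), 0.35 (Kdm4b), 0.46 (Kdm4c) and 0.059 (Phf8). After quantile normalization 9 genes rose and 18 fell between the fractions in WT (all genes 30.8% and 52.5%), and the log2 fold changes that turned positive were 0.22 (Kmt2c), 0.041 (Setd1a), 0.13 (Setd1b), 0.053 (Men1), 0.19 (Kdm1b), 0.025 (Kdm5a), 0.21 (Kdm4c) and 0.020 (Kdm2a). After quantile normalization 7 genes rose and 28 fell between the fractions in KO (all genes 29.4% and 53.8%), and the log2 fold changes that turned positive were 0.15 (Kmt2b), 0.015 (Kmt2c), 0.074 (Kmt2d), 0.055 (Setd1b), 0.15 (Men1), 0.26 (Kdm1b), 0.15 (Kdm4c) and 0.043 (Phf8). After centring within transcript length classes 7 genes rose and 17 fell between the fractions in Fvb/N (all genes 33.1% and 33.2%), and the log2 fold changes that turned positive were 0.17 (Kmt2b), 0.26 (Kmt2c), 0.17 (Kmt2e), 0.14 (Setd1b), 0.81 (Setd7), 0.35 (Smyd3), 0.63 (Kdm1b), 0.041 (Kdm5a), 0.0014 (Kdm4a), 0.51 (Kdm4b), 0.52 (Kdm4c), 0.18 (Phf8) and 0.24 (Kdm2a). After centring within transcript length classes 13 genes rose and 14 fell between the fractions in WT (all genes 40.4% and 40%), and the log2 fold changes that turned positive were 0.29 (Kmt2c), 0.060 (Kmt2e), 0.11 (Setd1a), 0.198 (Setd1b), 0.12 (Men1), 0.0077 (Nsd1), 0.0064 (Dot1l), 0.101 (Smyd2), 0.29 (Kdm1b), 0.077 (Kdm5a), 0.032 (Kdm3a), 0.012 (Kdm4a), 0.32 (Kdm4c), 0.096 (Phf8), 0.062 (Kdm2a) and 0.035 (Kdm6b). After centring within transcript length classes 11 genes rose and 19 fell between the fractions in KO (all genes 39.9% and 39.1%), and the log2 fold changes that turned positive were 0.31 (Kmt2b), 0.18 (Kmt2c), 0.23 (Kmt2d), 0.021 (Setd1a), 0.204 (Setd1b), 0.24 (Men1), 0.082 (Smyd3), 0.38 (Kdm1b), 0.28 (Kdm4c), 0.21 (Phf8), 0.043 (Kdm2a) and 0.035 (Kdm6b). Between genotypes in suprabasal cells 1 gene rose after median-ratio rescaling (all genes 23.9%), and 2 rose and 7 fell after the length centring (all genes 22.6% and 13.1%). The interaction held 4 falls after the length centring (all genes 8.33%) and 4 with no filter (3.32%), and the 1 rise of Kmt2d in basal cells became 0 with no filter (1.8%). The cause of these differences was not tested beyond the construction of each setting. With 1 library left out at a time, the rises numbered 1 to 3 in the KO fractions (3 as reported, 1 without KO suprabasal replicate 2, all genes 18.7% to 19.8%), 0 to 1 for KO against WT in basal cells (2.73% to 3.89%), 0 to 1 in suprabasal cells (15.2% to 21%) and 0 to 1 in the interaction (8.59% to 12.5%), and the falls in the interaction numbered 2 to 9 (4.51% to 6.52%). A lone library left in a group is assumed to vary like the other groups. In the Dlx3 table the deviations of same-numbered libraries correlate by −0.047 to 0.056 over genes, so the numbers show no pairing. Blocking on the replicate number gave 14 falls in place of 13 for KO against WT in suprabasal cells (15.3%) and 10 in place of 9 in the interaction (7.71%), and the other counts as reported. In the Fvb/N pairing the block gave 33 falls in place of 32 (all genes 61.5%), and it changed no other call. The run code as a term also gave 33 falls (63.3%). Within the labels' earlier run it was 32 falls (64%) and within the later one 24 (46.6%), with 1 rise in each. The lowest value of the 39 genes was 0.494 RPKM (Suv39h2), and 2 libraries a group limit the Dlx3 comparisons.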
